A study of Neurospora crassa with 22 samples.

Results

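The genes described here are the *N. crassa* genes for the use of acetate, for the glyoxylate cycle and for the steps particular to gluconeogenesis. They were chosen by function, with earlier results of these data known, and number 5 of the 9730 genes in the RNA-seq table. They are *acu-5* (NCU06836), *acu-3* (NCU04230), *acu-9* (NCU10007), *acu-6* (NCU09873) and *fbp-1* (NCU04797), and they account for 6 of the 10785 annotated transcripts. The transcripts of a gene were summed. Levels were measured in a mutant of *hH1*, the single gene of this fungus for the linker histone H1, and in the wild type, with 3 libraries for each strain. Both strains were grown for 5 hr from conidia (asexual spores) in Vogel's minimal medium with glucose, so that the RNA came from germinating conidia, although the labels name the tissue as mycelium. The study lists a deletion mutant and a mutant made by repeat-induced point mutation of *hH1*, and wild types of both mating types. Which of these strains gave the RNA is not given in the sources used here. Values are FPKM, fragments scaled to transcript length and to the number of mapped fragments, so that levels can be compared between genes.

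When *Neurospora* grows on acetate, acetate is first activated to acetyl-CoA by acetyl-CoA synthetase, the product of *acu-5*. Isocitrate lyase (*acu-3*) and malate synthase (*acu-9*) carry out the steps particular to the glyoxylate cycle. This cycle bypasses the steps of the tricarboxylic acid (TCA) cycle that release carbon dioxide. The bypass allows a net gain of carbon skeletons from acetyl-CoA. Phosphoenolpyruvate carboxykinase (*acu-6*) converts oxaloacetate to phosphoenolpyruvate, and fructose bisphosphatase (NCU04797, symbol *fbp-1* in the gene table) removes a phosphate from fructose bisphosphate. These reactions lead from acetate to sugar phosphates. In filamentous fungi, genes of this pathway are known to be induced by acetate and held low by glucose.

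As a check of the labels, *hH1* itself (NCU06863) was at 4.88 ± 3.92 FPKM in the mutant and 295 ± 30.5 FPKM in the wild type (SD, n = 3 each). The strains may also have differed at mating type, since *matA-1* was at 1.75 to 3.83 FPKM in the mutant libraries and was listed at 0 in all wild-type libraries. A listed 0 need not mean absence. The glycolytic gene *gpd-1*, at 29444 to 37393 FPKM in the mutant, was also listed at 0 in all wild-type libraries. Loss of H1 and other strain differences cannot be told apart. The first mutant library in the order of the table stood apart by its 2185 genes listed at 0, against 1577 to 1712 in the other 5 libraries. The conidiation genes *con-6* and *con-10* were at 0 to 1.23 FPKM in the mutant and at 0 to 1.65 FPKM in the wild type, while *con-8* and *eas* were at 3.35 to 12.1 FPKM in the mutant and at 3.48 to 9.31 FPKM in the wild type. Over all tested genes the median log2 change was -0.09, and 235 genes were lower and 125 higher in the mutant. This split depended on the level of the libraries, and was 140 lower and 281 higher with libraries centred on their medians. FPKM hold no read totals, so the depth behind each value is unknown.

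All 5 genes were at lower mean levels in the *hH1* mutant, and for each of them the 3 mutant libraries lay below the 3 wild-type libraries. Such a separation was found, in this direction, in 21.8% of the 7208 tested genes. The mean level in the mutant was between 55.7% (*acu-6*) and 81.8% (*acu-5*) of that in the wild type. In bulk RNA, fewer cells that express a gene and less RNA per cell cannot be told apart. In the test across all genes, *acu-6* and *acu-9* had fallen at an adjusted p under 0.05 and the other 3 genes did not pass. The call for *acu-6* ended in 6 and that for *acu-9* in 11 of the 15 alternatives tried, removal of the trend with gene length among them for both. At this threshold 3.26% of tested genes were called lower in the mutant. The median log2 change of the 5 genes was -0.51, with a range of -0.85 to -0.29. All 5 genes passed the filter on low values, set at a mean of 1 FPKM across the libraries, and none was listed at 0 in any library.

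**Figure D1:**
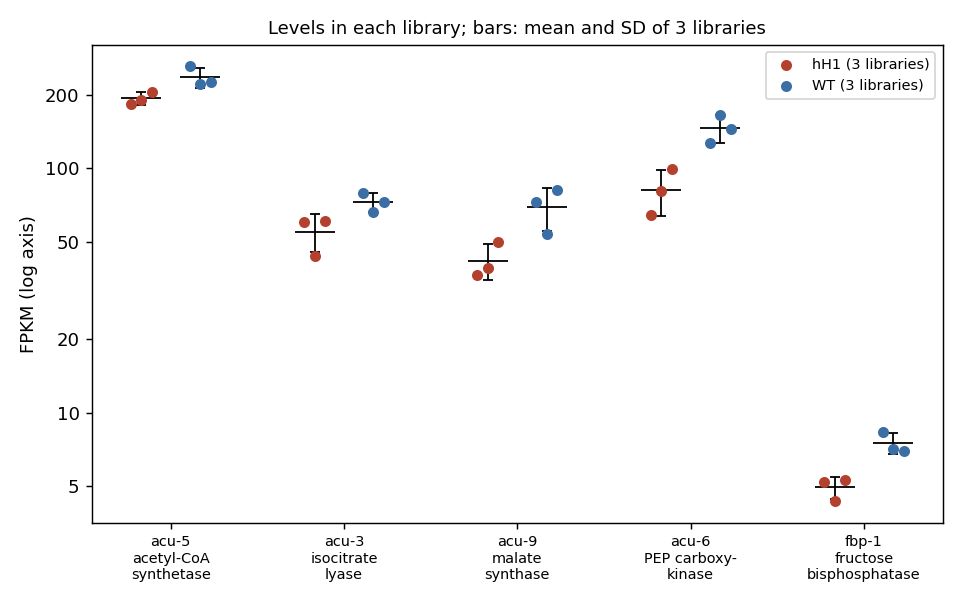
Level of each gene in FPKM (log axis) in the 3 *hH1* libraries (left of each pair) and the 3 WT libraries (right), with the mean and SD (n = 3). In each of the 5 genes the *hH1* points lie below the WT points, and the levels reach from 4.36 FPKM for *fbp-1* to 261 FPKM for *acu-5*.

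For acetate activation, the level of *acu-5* (LG II 1822777 to 1826393 of NC12) was 183, 190 and 205 FPKM in the *hH1* mutant, against 261, 221 and 225 FPKM in the wild type. The groups did not overlap, but the highest mutant library and the lowest wild-type library were close. The means were 193 ± 11.5 FPKM in the mutant and 236 ± 22.2 FPKM in the wild type (SD, n = 3 each). The log2 change was -0.29 (95% interval -0.54 to -0.03), which did not pass the threshold (limma, Benjamini-Hochberg over 7208 genes, adjusted p = 0.153). *acu-5* was the highest of the 5 genes in all 6 libraries, at rank 459 of 9730 genes in the mutant and rank 380 in the wild type. It also has the longest gene span of the 5, 3617 bases, and the 1442 longest tested genes had a median log2 change of -0.28. *acu-5* lies at the lower edge of this class, which spans 3596 to 34205 bases. The median in the class below, of 2685 to 3595 bases, was -0.16.

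In the glyoxylate cycle, malate synthase was narrowly called lower and isocitrate lyase was not called, while their 95% intervals overlapped. The level of *acu-9* (LG I 710761 to 713665) was 36.7, 39.0 and 49.8 FPKM in the *hH1* mutant, against 72.6, 54.0 and 81.2 FPKM in the wild type. The third mutant library and the second wild-type library came nearest to each other. The means were 41.9 ± 7.0 FPKM in the mutant and 69.3 ± 13.9 FPKM in the wild type (SD, n = 3 each), or 60.4% of the wild-type level. The log2 change was -0.71 (standard error 0.18, 95% interval -1.09 to -0.32), just past the threshold (limma, Benjamini-Hochberg, adjusted p = 0.0474). The call for *acu-9* held without the second wild-type library (adjusted p = 0.0448) and was lost without any other single library. Its adjusted p was 0.108, 0.121 and 0.0519 without the first, the second and the third mutant library and 0.189 and 0.0984 without the first and the third wild-type library (limma).

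Of the 5 genes, *acu-9* alone has more than 1 annotated transcript. Its second transcript was listed at 0 in 4 libraries and reached 1.10 FPKM in the third mutant library and 1.83 FPKM in the first wild-type library, so that nearly all of the *acu-9* signal came from the first transcript. *acu-9* lies on the same linkage group as *matA-1*, at a distance of 1147 kb, and the other 4 genes lie on other linkage groups.

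The level of *acu-3* (LG V 5289251 to 5292173) was 60.3, 43.8 and 60.9 FPKM in the *hH1* mutant, against 79.0, 66.0 and 73.1 FPKM in the wild type. Most of the spread in the mutant came from the second library, and the other mutant libraries were nearly equal. The means were 55.0 ± 9.71 FPKM in the mutant and 72.7 ± 6.51 FPKM in the wild type (SD, n = 3 each). The log2 change of -0.41 (95% interval -0.75 to -0.07) did not pass (limma, Benjamini-Hochberg, adjusted p = 0.129). Without the second mutant library it was -0.25 (limma, adjusted p = 0.344).

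Because both enzymes act in the same cycle, the ratio of *acu-3* to *acu-9* was compared within libraries, where the scaling of a library largely cancels. The ratio of FPKM + 1 was 1.63, 1.12 and 1.22 in the mutant, against 1.09, 1.22 and 0.902 in the wild type. The groups overlapped, and the mean log2 ratio was 0.38 ± 0.282 in the mutant and 0.09 ± 0.218 in the wild type (SD, n = 3 each; two-sided exact permutation test over 20 labelings, p = 0.2, or 0.3 after Benjamini-Hochberg adjustment over the 2 ratios compared, where 0.1 is the smallest unadjusted p possible). With 3 libraries a strain this test cannot reach 0.05, so it does not decide whether *acu-3* and *acu-9* responded differently. The difference in mean log2 ratio was 0.30, but 0.139 without the first mutant library and 0.181 without the third wild-type library.

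Of the gluconeogenic enzymes, *acu-6* was called lower. Its log2 change was the largest of the 5 genes with all libraries, but its interval overlapped that of *acu-9*, and without the second wild-type library *acu-9* was at -0.87 and *acu-6* at -0.76. The level of *acu-6* (LG VI 1824832 to 1828327) was 64.3, 80.4 and 99.0 FPKM in the *hH1* mutant, against 127, 165 and 145 FPKM in the wild type. There was a clear gap between the groups, with the highest mutant library well under the lowest wild-type library. The means were 81.3 ± 17.3 FPKM in the mutant and 146 ± 19.1 FPKM in the wild type (SD, n = 3 each), or 55.7% of the wild-type level. The log2 change was -0.85 (standard error 0.17, 95% interval -1.22 to -0.48; limma, Benjamini-Hochberg, adjusted p = 0.0233). The gene ranked 1023 of 9730 in the mutant and 592 in the wild type. The call for *acu-6* was lost without the second mutant library (adjusted p = 0.0660) and without the first or second wild-type library (adjusted p = 0.0848 and 0.0765), and was kept without the first mutant library, which has the most genes at 0 (adjusted p = 0.04996, limma).

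The gene table also gives *acu-6* the name *con-3*, that of a conidiation gene. Of the conidiation genes above, *con-8* and *eas* were high enough to be tested. They overlapped between the strains, with log2 changes of -0.15 and 0.45 that did not pass the test (limma, Benjamini-Hochberg, adjusted p = 0.818 and 0.398).

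The level of *fbp-1* (LG VI 854430 to 856333, 968 kb from *acu-6*) was 5.20, 4.36 and 5.30 FPKM in the *hH1* mutant, against 8.37, 7.14 and 7.0 FPKM in the wild type. The libraries within each strain were close together and the groups did not overlap. The means were 4.95 ± 0.517 FPKM in the mutant and 7.51 ± 0.752 FPKM in the wild type (SD, n = 3 each), or 66.0% of the wild-type level. The log2 change of -0.51 (95% interval -0.92 to -0.11) did not pass the threshold (limma, Benjamini-Hochberg, adjusted p = 0.113). At this low level the pseudocount of 1 FPKM understates the change, which was -0.59 with a pseudocount of 0.1 (limma, adjusted p = 0.114). The median log2 change in the length class of *fbp-1*, the 1441 tested genes of 1611 to 2120 bases, was 0.02. For *acu-3*, *acu-9* and *acu-6*, which fall in the class of 2685 to 3595 bases, it was -0.16.

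The ratio of *acu-6* to *fbp-1*, again of FPKM + 1, was 10.5, 15.2 and 15.9 in the mutant, against 13.7, 20.4 and 18.3 in the wild type. The groups overlapped. The mean log2 ratio was 3.77 ± 0.325 in the mutant and 4.11 ± 0.298 in the wild type (SD, n = 3 each; two-sided exact permutation test, p = 0.3, or 0.3 after adjustment), a test with the same limit. The difference in mean log2 ratio was -0.34, -0.148 without the first mutant library and -0.212 without the second wild-type library.

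**Figure D2:**
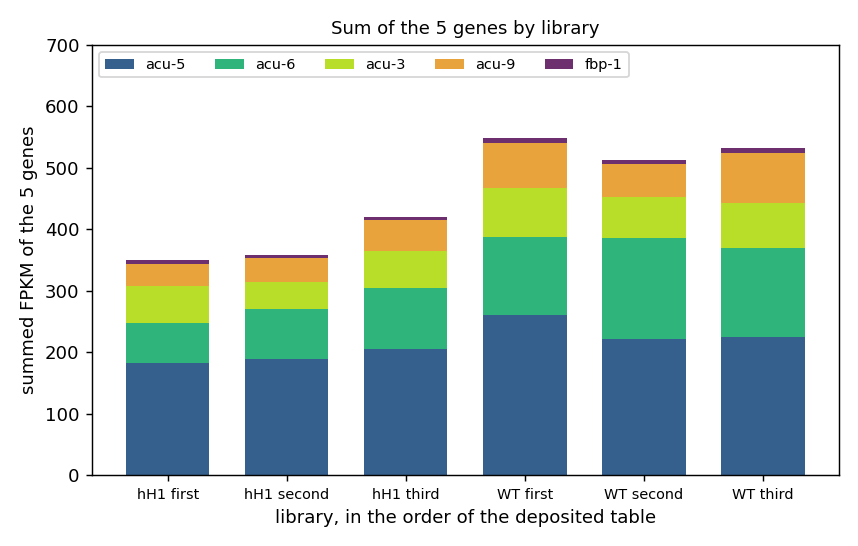
Summed FPKM of the 5 genes (vertical axis) in each of the 3 *hH1* and 3 WT libraries, split by gene. The *hH1* libraries reach 350 to 421 FPKM, under the 513 to 548 FPKM of the WT libraries, and *acu-5* is the largest block in every library.

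The 5 genes summed to 350, 357 and 421 FPKM in the mutant, against 548, 513 and 532 FPKM in the wild type, as the bars of summed FPKM show. This was 0.0628 ± 0.00683% of all FPKM in the mutant and 0.0942 ± 0.00465% in the wild type (SD, n = 3 each), with *gpd-1* left out of the total because it is at 29444 to 37393 FPKM in the mutant and listed at 0 in all wild-type libraries. *acu-5* made up 51.4 ± 2.23% of the sum in the mutant and 44.3 ± 2.84% in the wild type, and *acu-6* made up 21.5 ± 2.70% in the mutant and 27.6 ± 4.51% in the wild type (SD, n = 3 each). The shares of *acu-5* lay apart between the strains. Those of *acu-6* overlapped, at 18.4 to 23.5% in the mutant and 23.2 to 32.2% in the wild type. The shares of *acu-3*, at 14.7 ± 2.51% in the mutant and 13.7 ± 0.755% in the wild type, and of *acu-9*, at 11.1 ± 0.666% in the mutant and 13.0 ± 2.41% in the wild type, differed by less than the larger SD of each pair.

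The order of the levels was much the same in both strains. *acu-5* was followed by *acu-6* in all 6 libraries, and *fbp-1* was the lowest in all 6. *acu-3* was above *acu-9* in 5 of 6 libraries, with the third wild-type library as the exception, and the ranges of these neighbours overlapped in both strains, so that they are not told apart by level. The other neighbours in this order had ranges that lay apart in each strain. In a ranking of all 9730 genes, *acu-3* and *acu-9* stood at ranks 1438 and 1791 in the mutant and at 1143 and 1190 in the wild type. *fbp-1* was at rank 5728 in the mutant and at rank 5250 in the wild type, in the lower part of the table.

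To see how far the differences extended, 5 lists of genes around this pathway were formed from the symbols of the gene table. They hold 39 genes, all of which were tested. *gpd-1*, which encodes the glycolytic enzyme glyceraldehyde phosphate dehydrogenase, is 1 of them, and no change is given for it because of the zeros in the wild type. Of the other 38 genes, 0 passed an adjusted p of 0.05 (limma), where 4.99% of all tested genes did. At an unadjusted p under 0.05, 4 of the 38 were higher and 3 lower in the mutant, where 25.9% of all tested genes reached this limit in either direction. Their median log2 change was 0.00, with a range of -0.48 to 0.58. Groups that did not overlap are named below for some of these genes. With the mutant lower, 21.8% of all tested genes had such groups, and the share with the mutant higher was not counted.

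**Figure D3:**
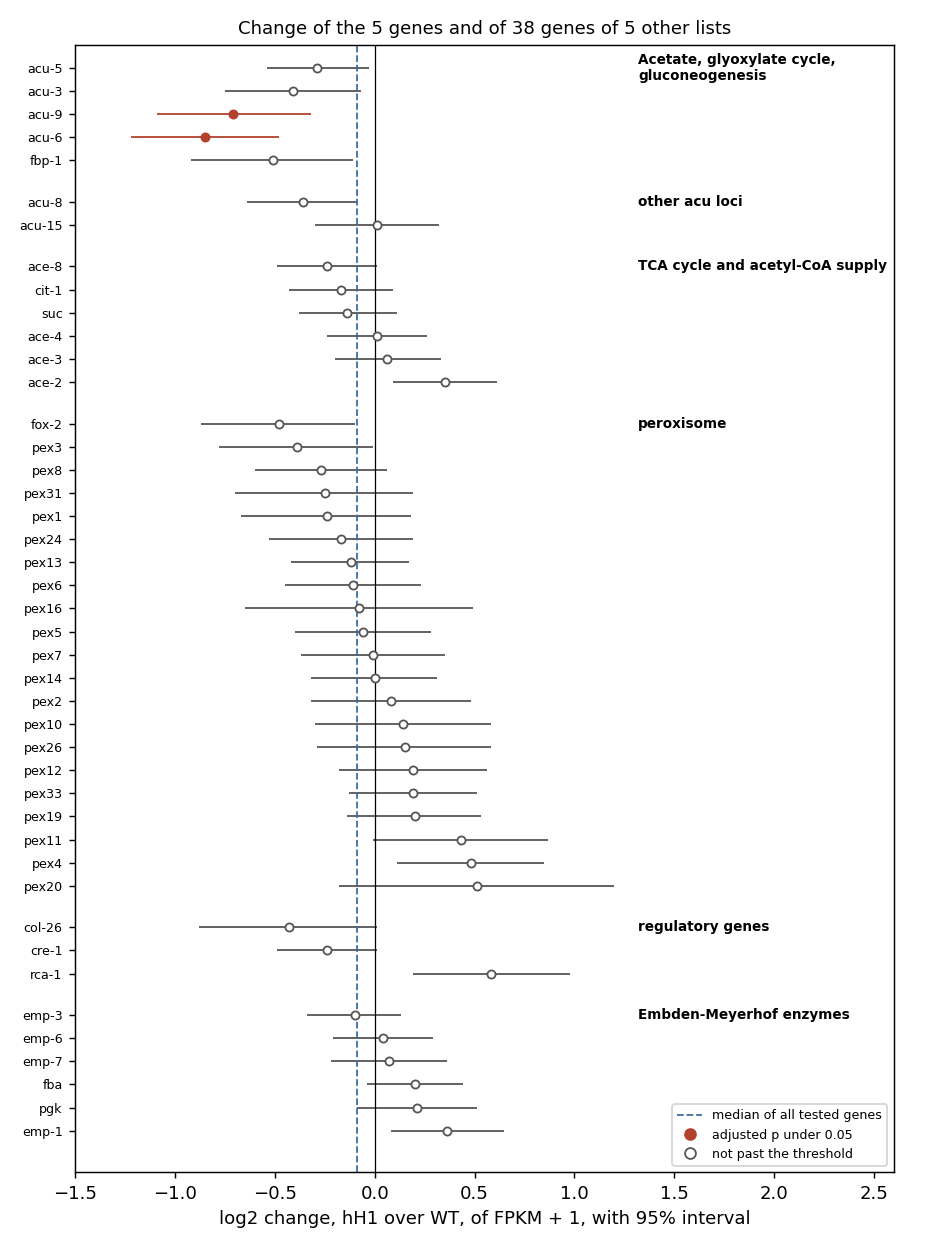
Log2 change, *hH1* over WT, on the scale of FPKM + 1 (horizontal axis), with its 95% interval, for the 5 genes (top) and 38 other genes in 5 lists. Filled red points passed an adjusted p of 0.05, and the dashed line is the median of all tested genes, -0.09. The 5 genes lie between -0.85 and -0.29, and 0 of the other 38 genes passed.

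The other *acu* loci were *acu-8*, related to acetyl-CoA hydrolases, and *acu-15*, a transcription factor that activates genes for acetate use. *acu-8* was at 74.2, 70.3 and 72.0 FPKM in the mutant, against 99.5, 99.9 and 81.2 FPKM in the wild type. Its groups did not overlap, as in the 5 genes above, but the log2 change of -0.36 did not pass (95% interval -0.64 to -0.09; limma, Benjamini-Hochberg, adjusted p = 0.107). *acu-15* was at 24.0, 22.8 and 27.7 FPKM in the mutant, against 23.9, 23.0 and 27.2 FPKM in the wild type. Its libraries were interleaved, and its log2 change was 0.01 with a 95% interval of -0.30 to 0.32 (limma).

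Among 6 genes of the TCA cycle and of acetyl-CoA supply, 0 passed, and the log2 changes ranged from -0.24 to 0.35. *cit-1*, which encodes citrate synthase, was at 281 ± 30.6 FPKM in the mutant and 314 ± 12.1 FPKM in the wild type, and *suc*, the locus of pyruvate carboxylase, was at 294 ± 26.3 FPKM in the mutant and 323 ± 13.0 FPKM in the wild type (SD, n = 3 each). Both overlapped between strains. *ace-8* was at 2044 ± 181 FPKM in the mutant and 2410 ± 121 FPKM in the wild type (SD, n = 3 each). The groups of *ace-8* lay apart, with the mutant lower. Its log2 change of -0.24 did not pass (limma, adjusted p = 0.211). *ace-2*, an acetate-requiring locus, was on the other side, at 450 ± 52.6 FPKM in the mutant and 352 ± 12.6 FPKM in the wild type (SD, n = 3 each). Its groups did not overlap. Its log2 change of 0.35 did not pass (limma, adjusted p = 0.104), but passed when the libraries were centred (0.45, adjusted p = 0.0444) or when the trend with gene length was removed (0.48, adjusted p = 0.0496).

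Of 21 peroxisomal genes, 0 passed, 12 had a log2 change below 0 (60.1% of all tested genes did) and the median was -0.01. In fungi, peroxisomes or related organelles house the enzymes of the glyoxylate cycle and of fatty acid oxidation. The lowest value in this list was that of *fox-2*, an enzyme of fatty acid oxidation, at 14.8, 20.8 and 20.1 FPKM in the mutant, against 28.5, 28.6 and 21.7 FPKM in the wild type. The groups were close but did not overlap (log2 change -0.48, 95% interval -0.87 to -0.10; limma, adjusted p = 0.119). Groups also lay apart for *pex3* and *pex8*, which were lower in the mutant, and for *pex4*, which was higher. Separation with the mutant lower was found in 21.8% of all tested genes. The log2 change of *pex4* was 0.48 (95% interval 0.11 to 0.85; limma, adjusted p = 0.112). The highest value was that of *pex20*, at 0.51 with overlapping groups (limma, adjusted p = 0.315). The import receptor gene *pex5* was at 47 ± 9.23 FPKM in the mutant and 48.3 ± 1.40 FPKM in the wild type, and *pex7* was at 10.1 ± 0.206 FPKM in the mutant and 10.2 ± 1.49 FPKM in the wild type (SD, n = 3 each).

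Among the 3 regulatory genes *cre-1*, *col-26* and *rca-1*, 0 passed. *cre-1*, the repressor of genes for other carbon sources in the presence of glucose, was at 86.7, 85.6 and 93.2 FPKM in the mutant, against 105, 98.3 and 111 FPKM in the wild type. Its groups did not overlap, with a small log2 change of -0.24 (95% interval -0.49 to 0.01; limma, adjusted p = 0.208). *rca-1*, whose symbol refers to a homolog of a conidiation regulator of *Aspergillus*, was at 16.2 ± 2.94 FPKM in the mutant and 10.4 ± 1.35 FPKM in the wild type (SD, n = 3 each; log2 change 0.58, limma, adjusted p = 0.0823), and passed after centring (adjusted p = 0.0415) and after quantile normalization (adjusted p = 0.0465). The groups of *rca-1* did not overlap either, with the mutant higher.

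Of 7 genes of the Embden-Meyerhof pathway (glycolysis), the 6 without *gpd-1* had a median log2 change of 0.13 and a range of -0.10 to 0.36, and 0 of them passed. The sign of this median depended on the scaling. With quantile normalization it was -0.08, and 4 of the 6 genes were below 0. *emp-7*, the enolase gene, whose enzyme also acts in gluconeogenesis, was at 10778 ± 1620 FPKM in the mutant and 10221 ± 126 FPKM in the wild type (SD, n = 3 each). *emp-1* was at 337 ± 31.8 FPKM in the mutant and 263 ± 33.2 FPKM in the wild type, which did not pass (log2 change 0.36, limma, adjusted p = 0.113) unless the libraries were centred (adjusted p = 0.0434) or the length trend removed (adjusted p = 0.0309). With quantile normalization its log2 change was 0.33 (limma, adjusted p = 0.133). The groups of *emp-1* and of *fba* did not overlap, with the mutant higher in both.

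Genes with a profile like that of each of the 5 genes over the 6 libraries were looked for among all tested genes, by the root mean square (RMS) difference of log2(FPKM + 1) after centring each gene on its own mean. This is a description of likeness in 6 libraries. Within the 5 genes, *acu-3* and *fbp-1* were the most alike, with an RMS difference of 0.108, and *acu-3* and *acu-6* the least alike, with 0.370. For comparison, the median RMS difference to all other tested genes was 0.329 for *acu-3* and for *fbp-1* and 0.469 for *acu-6*. The 2 genes closest to each of the 5 were outside this set, and most have no symbol in the gene table. For *acu-6* these were NCU02529 (RMS difference 0.096) and NCU05833 (0.101), and for *acu-9* NCU00268 (0.053) and *stk-22* (0.068). NCU02529 was at 0.449 to 1.67 FPKM in the mutant and 2.32 to 3.32 FPKM in the wild type, where the pseudocount understates its change. The nearest to *acu-5* were NCU00759 (0.036) and NCU03819 (0.038), the nearest to *acu-3* were NCU05228 (0.064) and NCU05865 (0.065), and the nearest to *fbp-1* were NCU02120 (0.042) and *ck-1b* (0.049).

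**Figure D4:**
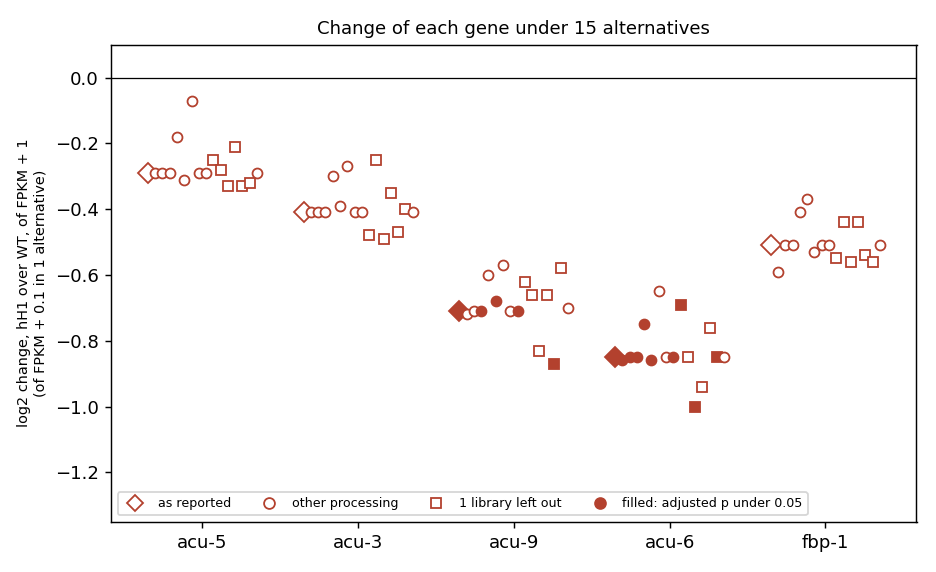
Log2 change, *hH1* over WT, of each of the 5 genes as reported (diamonds), under 9 other ways of processing (circles) and with 1 library left out (squares). Filled symbols passed an adjusted p of 0.05. All values are below 0, and the calls for *acu-6* and *acu-9* are lost in 6 and 11 of the 15 alternatives. Only centring, quantile normalization and removal of the length trend could have moved a value above 0.

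The direction of the change was negative for all 5 genes under each of the 15 alternatives, as the plot of these alternatives shows. Since the groups of all 5 genes did not overlap, only centring, quantile normalization and removal of the length trend could have reversed it. *acu-6* remained called in 9 of them and *acu-9* in 4, while *acu-5*, *acu-3* and *fbp-1* were called in 0. With each library's trend with length removed, the log2 change of *acu-5* was -0.07, while that of *acu-3* was -0.27, that of *acu-9* -0.57, that of *acu-6* -0.65 and that of *fbp-1* -0.53.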

How the data were processed

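The authors aligned strand-specific reads of RNA depleted of ribosomal RNA to NC12 with TopHat (TopHat2 2.0.14 in the submitters' processing notes) and deposited FPKM of each annotated transcript from the Cufflinks suite (Cuffnorm, no version, in the notes). How libraries were scaled to each other is not given in the sources used here. Columns name the strain but not the replicate of the labels, and 0 columns were unused. The other 16 samples of the series were not analysed here.

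Symbols and positions came from a RefSeq gene table of the same assembly (9729 of 9730 genes). Genes averaging 1 FPKM or more across the libraries were tested on log2(FPKM + 1), which understates changes of low genes, with limma 3.58.1 (R 4.3.3; eBayes with trend, two-sided, Benjamini-Hochberg, threshold 0.05). The same fit was also run on simulated data, which held no trend with gene length and no shift between libraries. The p-values set the difference between the strains against the spread between these libraries within a strain. Ratios were tested by exact permutation (scipy 1.17.1). Length trends were removed by loess (span 0.5).

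The rule named the 5 genes, the *acu* loci, *hH1*, *matA-1*, conidiation genes, called list genes and the 2 nearest profiles of each gene. Other list genes were named after their values were seen. Of the list symbols, 1 gene sharing only a synonym with *cit-1* was left out. Genes and lists were chosen with earlier results of these data known. Alternatives were the pseudocount, filters, scaling, variance settings, single transcripts and leaving out each library. The scaling alternatives of the lists and the share of all FPKM were chosen after seeing the data.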

Additional observations from a re-analysis of the deposited data

How the results depend on the processing

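The change of *acu-6* was -0.85 as reported and did not pass with the length trend removed (-0.65, limma adjusted p = 0.0524), without the variance trend (-0.85, adjusted p = 0.0727) or with each transcript tested on its own (-0.85, adjusted p = 0.0761). Without 1 library each, it ranged from -1.0 to -0.69 (adjusted p 0.0187 to 0.0848). The change of *acu-9* was -0.71 and did not pass with a pseudocount of 0.1 (-0.72, adjusted p = 0.0526), without a filter (-0.71, adjusted p = 0.0783), after centring (-0.60, adjusted p = 0.0537), with the length trend removed (-0.57, adjusted p = 0.0803), without the variance trend (-0.71, adjusted p = 0.0997) or by transcript (-0.70, adjusted p = 0.103). Without 1 library each, it ranged from -0.87 to -0.58 (adjusted p 0.0448 to 0.189). *acu-3*, *acu-5* and *fbp-1* had adjusted p values of 0.116 to 0.344, 0.133 to 0.735 and 0.0970 to 0.303 over the 15 alternatives. The 2 ratios kept their sign in 8 of 8 alternatives each, with exact p values of 0.2 to 0.6. Without 1 library each, the difference in log2 ratio ranged from 0.139 to 0.408 for *acu-3* to *acu-9* and from -0.501 to -0.148 for *acu-6* to *fbp-1*. The cause of these shifts was not tested.

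The count of genes called over the whole table, 360, was 188 without a filter, 220 with the length trend removed, 135 without the variance trend and 45 by transcript. It ranged from 29 (without the first wild-type library) to 372 (without the third) when 1 library was left out. Quantile normalization gave 158 higher and 173 lower genes, and removal of the length trend 124 higher and 96 lower. No paired analysis was possible because the columns do not carry the replicate numbers of the labels. Read depth is unknown, so the precision of the lowest gene, *fbp-1*, is known only from the spread between libraries.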
